A study of Danio rerio with 10 samples.

Results

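The microRNAs described here are those best known as products of white blood cells and of the cells that line blood vessels. They were chosen by name, with earlier results of these data known, as the rows for mir-142a, mir-142b, mir-150, mir-155, mir-223, mir-126a and mir-126b. These are 7 of the 272 microRNA genes, and of 32266 rows in all, in a table of raw small RNA counts from zebrafish livers. The libraries came from 5 ABC fish, which carry the transgene Tg(fabp10a-pt-β-cat), and from 5 non-transgenic wild-type siblings (WT), with 1 library per fish. The fabp10a promoter drives an activated β-catenin in hepatocytes, and expression of the transgene itself was not checked in these small RNA counts. All fish were males of 4 months, and livers of the ABC fish had hepatocellular carcinoma on histology. The question asked of these 10 libraries was which pre-miRNAs differ in ABC compared to WT livers.

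MicroRNAs are short RNAs cut from hairpin precursors, and the mature strand guides Argonaute proteins to messenger RNAs that it matches, mostly lowering their output. mir-142 is made in nearly all blood-forming cells and serves as a general label of leukocytes. mir-150 is abundant in mature B and T lymphocytes and, in mice, restrains the transcription factor c-Myb. mir-155 is induced when lymphocytes and macrophages are activated, whereas mir-223 is abundant in neutrophils and other myeloid cells. mir-126 belongs to endothelium, lies within the gene egfl7 and is needed in zebrafish for vessel integrity. A liver holds all of these cell types beside its hepatocytes, and in bulk tissue fewer cells of a type and less RNA per cell cannot be told apart.

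Of the 7 microRNA genes, 5 had counts in every fish and passed the filter on low counts, and the other two, mir-142b (ENSDARG00000082467) and mir-126a (ENSDARG00000081476), had 0 counts in each of the 10 fish. A count of 0 allows up to 3 counts, or 1.18 to 2.60 counts on a per-million scale depending on the fish, for counting error only. How reads that match both copies of a near-identical pair were assigned is not given in the sources used here, so the values of mir-142a and mir-126b are uncertain as values of a single copy. Both mir-142 rows carry the symbol MIR142 in the gene name table, and the row with counts (ENSDARG00000082167) was taken as mir-142a, the only copy that the study lists. The remaining rows were mir-150 (ENSDARG00000081593), mir-155 (ENSDARG00000081781), mir-223 (ENSDARG00000080589) and mir-126b (ENSDARG00000098981).

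The ABC libraries held 1236439 to 2408262 counts and the WT libraries 1423307 to 2609547, of which 93.7 ± 0.728% in ABC and 96.7 ± 1.17% in WT (SD, n = 5 each) fell on pre-miRNAs. A single row, ENSDARG00000083634, took 38.6 ± 6.23% of those in ABC and 69.8 ± 3.15% in WT (SD, n = 5 each). Its symbol in the gene name table is mir124-1, but which microRNA it holds is uncertain. For this reason the libraries were scaled with TMM factors, which averaged 1.31 ± 0.194 in ABC and 0.770 ± 0.0643 in WT (SD, n = 5 each). Normalized counts below are CPM (counts scaled per-million) after that scaling. L2FC is the log2 fold change of ABC over WT. A pre-miRNA was called dysregulated when its adjusted p (padj, from edgeR's quasi-likelihood F-test, adjusted by Benjamini-Hochberg over 144 pre-miRNAs) was under 0.05 and its L2FC was 0.5 or more in either direction. With these thresholds 62 of the 144 pre-miRNAs tested (43.1%) were called, 34 higher in ABC (23.6%) and 28 lower (19.4%). The median L2FC over the 144 was -0.11.

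Among the 5 leukocyte and endothelial microRNAs tested, 1 was called, which is not above the share of 43.1% called among all pre-miRNAs. The lymphocyte microRNA mir-150 was lower in ABC than in WT. mir-223 and mir-155 had higher means in ABC without passing the adjusted threshold, and mir-142a and mir-126b had lower means without passing it. Under TMM the signs of the 5 L2FCs were thus not all the same, but only that of mir-150 belonged to a called difference. The signs of mir-142a and mir-126b depended on the scaling, as given below. The following paragraphs give each microRNA in turn.

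mir-150 was the most abundant of them. Its normalized counts were 2183, 1313, 1217, 1021 and 1216 CPM in ABC replicates 6 to 10, against 5082, 4696, 3470.1, 2920.5 and 4309.6 CPM in WT replicates 1 to 5. On the TMM scale every ABC fish lay below every WT fish, which was the case for 16.7% of the 144 pre-miRNAs. Mean levels were 1389.8 ± 456 CPM in ABC and 4096 ± 888 CPM in WT (SD, n = 5 each), so WT was 2.95-fold higher. The L2FC was -1.56 with a standard error of 0.25 and a 95% interval of -2.10 to -1.02 (edgeR padj 0.000358). Raw counts of mir-150 ranged from 1455 to 4150 in ABC and from 4728 to 6280 in WT, and counting error at these numbers is small beside the spread between fish. By L2FC it stood at place 132 of 144, counted from the largest rise. ABC replicate 6 was the highest of its group, at 2183 CPM against 1021 to 1313 CPM in the other 4.

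**Figure D1:**
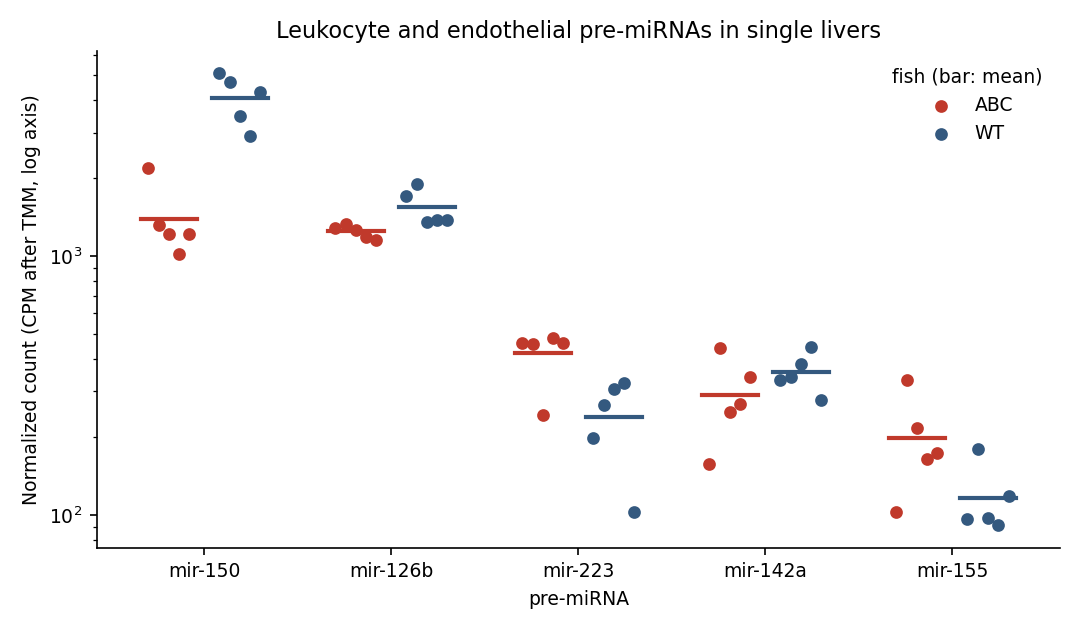
Normalized counts (CPM after TMM scaling, log axis) of the 5 leukocyte and endothelial microRNAs with counts, 1 point per fish, ABC left of WT for each microRNA, with bars for group means. All 5 ABC points for mir-150 lie below all 5 WT points, whereas for mir-142a, mir-155 and mir-223 the groups overlap.

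The myeloid microRNA mir-223 had 463, 458, 244, 483 and 462 CPM in ABC replicates 6 to 10, against 198, 265, 305, 324 and 103 CPM in WT replicates 1 to 5. Thus 4 of the 5 ABC fish lay above every WT fish, and replicate 8 lay within the WT range. Means were 422 ± 100.1 CPM in ABC and 239 ± 90.0 CPM in WT (SD, n = 5 each), a 1.77-fold difference. The L2FC was 0.82 with a standard error of 0.32 and a 95% interval of 0.12 to 1.52, and it did not pass the threshold (edgeR padj 0.0568). Without ABC replicate 8 the L2FC of mir-223 was 0.97 and passed (edgeR padj 0.0239), and without WT replicate 4 it was 1.02 and passed (edgeR padj 0.0402). mir-223 was not called in the other 8 analyses that left out 1 fish, with its lowest L2FC of 0.71 without WT replicate 5 (edgeR padj 0.0611) and its highest adjusted p without WT replicate 1 (L2FC 0.76, edgeR padj 0.110). Counts behind these values ranged from 292 to 1449 in ABC and from 113 to 632 in WT.

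For mir-155, the microRNA of activated immune cells, ABC replicates 6 to 10 had 102, 331, 216, 165 and 174 CPM, against 96.6, 179, 97.1, 91.2 and 118 CPM in WT replicates 1 to 5. The groups overlapped, since 2 of the 5 ABC fish exceeded every WT fish and WT replicate 2 exceeded the remaining 3. Means were 197 ± 84.8 CPM in ABC and 117 ± 36.7 CPM in WT (SD, n = 5 each). The L2FC of 0.76 had a standard error of 0.32 and a 95% interval of 0.05 to 1.47, and it was not called (edgeR padj 0.0761). Leaving out ABC replicate 6 gave a called L2FC for mir-155 of 0.93 (edgeR padj 0.0276), and leaving out WT replicate 2 gave a called L2FC of 1.03 (edgeR padj 0.0283). mir-155 was not called in the other 8 analyses that left out 1 fish, and without ABC replicate 7 its L2FC was 0.49 (edgeR padj 0.202). This was the least abundant of the 5, with 184 to 1045 counts per ABC fish and 108 to 240 per WT fish.

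The general leukocyte microRNA mir-142a showed no difference larger than the spread between fish. It had 157, 441, 250.0, 268 and 340.1 CPM in ABC replicates 6 to 10, against 331, 342, 382, 447 and 279 CPM in WT replicates 1 to 5. Means were 291 ± 106 CPM in ABC and 356 ± 62.8 CPM in WT (SD, n = 5 each). The L2FC was -0.29 with a standard error of 0.27 (edgeR padj 0.395), and its 95% interval of -0.88 to 0.30 holds both a fall and a small rise. Within ABC, replicate 7 was the highest fish and replicate 6 the lowest both for mir-142a and for mir-155.

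The endothelial microRNA mir-126b varied least between fish. ABC replicates 6 to 10 had 1287, 1335, 1265, 1182 and 1155 CPM, against 1704, 1901, 1349.9, 1377 and 1382 CPM in WT replicates 1 to 5. Every ABC fish lay below every WT fish, but the highest ABC fish and the lowest WT fish were 1335 and 1349.9 CPM. Means were 1245 ± 74.8 CPM in ABC and 1543 ± 247 CPM in WT (SD, n = 5 each), with a coefficient of variation of 6.01% in ABC and 16.0% in WT. The L2FC of -0.31 had a standard error of 0.16 and a 95% interval of -0.67 to 0.05, and it was not called (edgeR padj 0.147). With DESeq2 in place of edgeR, mir-126b passed the adjusted threshold, with an L2FC of -0.38 (DESeq2 Wald test, padj 0.0486). It was not called there either, because that L2FC was short of the L2FC threshold. Two-sided exact permutation tests on the log2 CPM of each microRNA, with no adjustment, gave p = 0.00794 for mir-126b and for mir-150, 0.0317 for mir-223, 0.0714 for mir-155 and 0.222 for mir-142a. The value of 0.00794 is the smallest that 5 fish against 5 allow, and it follows from groups that do not overlap on the TMM scale. The groups did not overlap in either direction for 34.7% of the 144 pre-miRNAs.

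**Figure D2:**
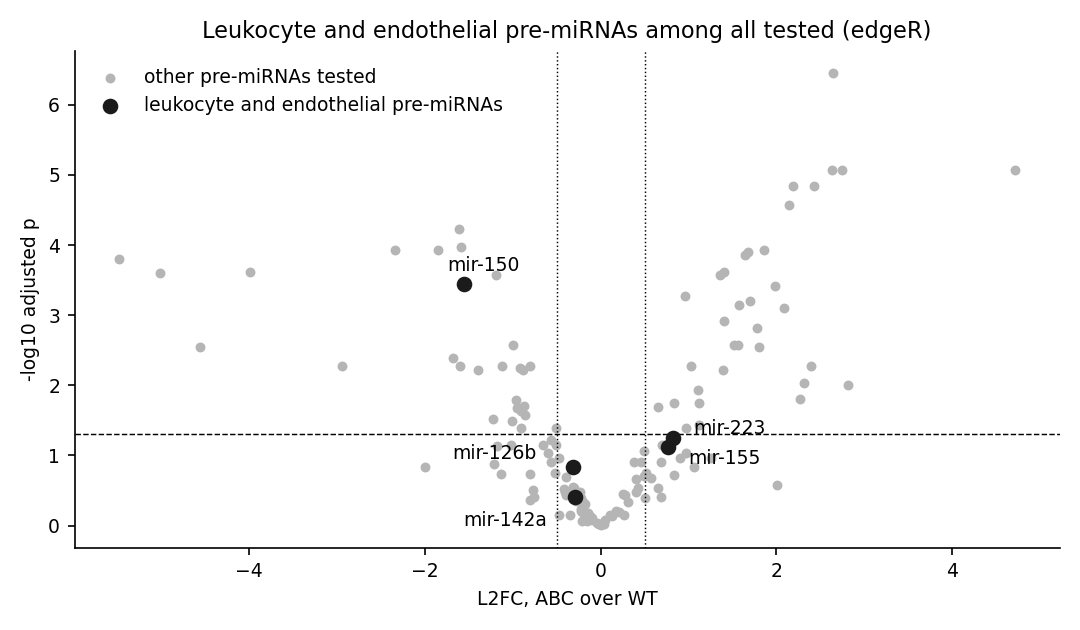
L2FC of ABC over WT (x axis) against -log10 of the edgeR adjusted p (y axis) for the 144 pre-miRNAs tested, with the 5 leukocyte and endothelial microRNAs marked by name. mir-150 lies among the 28 pre-miRNAs called lower, mir-223 and mir-155 lie right of 0 short of the adjusted threshold, and mir-126b and mir-142a lie just left of 0.

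The directions above depend in part on how libraries of such different composition are put on 1 scale. As plain shares of all pre-miRNA counts, mir-150 was 0.182 ± 0.0615% in ABC and 0.315 ± 0.0742% in WT, and mir-126b was 0.163 ± 0.0222% in ABC and 0.119 ± 0.0239% in WT (SD, n = 5 each). The share of mir-142a was 0.0391 ± 0.0177% in ABC and 0.0276 ± 0.00604% in WT (SD, n = 5 each). For mir-150, ABC replicate 6 had 3924 of 1406433 pre-miRNA counts and WT replicate 4 had 5702 of 2543331. The share was thus larger in that ABC fish, and the groups overlapped in plain shares of mir-150. With total count alone in place of TMM, the median L2FC of the 144 pre-miRNAs was higher by 0.78, and mir-150 was still called lower, with an L2FC of -0.79. On that scale mir-126b and mir-142a turned to positive L2FCs of 0.45 and 0.50, neither of them called. mir-223 and mir-155 were called higher on it, with L2FCs of 1.60 and 1.54. So were many other pre-miRNAs, since on that scale 65 of the 144 were called higher and 10 lower. Less the median L2FC of all pre-miRNAs, the values were 0.93 for mir-223 and 0.87 for mir-155, against 0.94 and 0.87 under TMM. On every other scaling tried, the sign of each of the 5 was as under TMM.

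**Figure D3:**
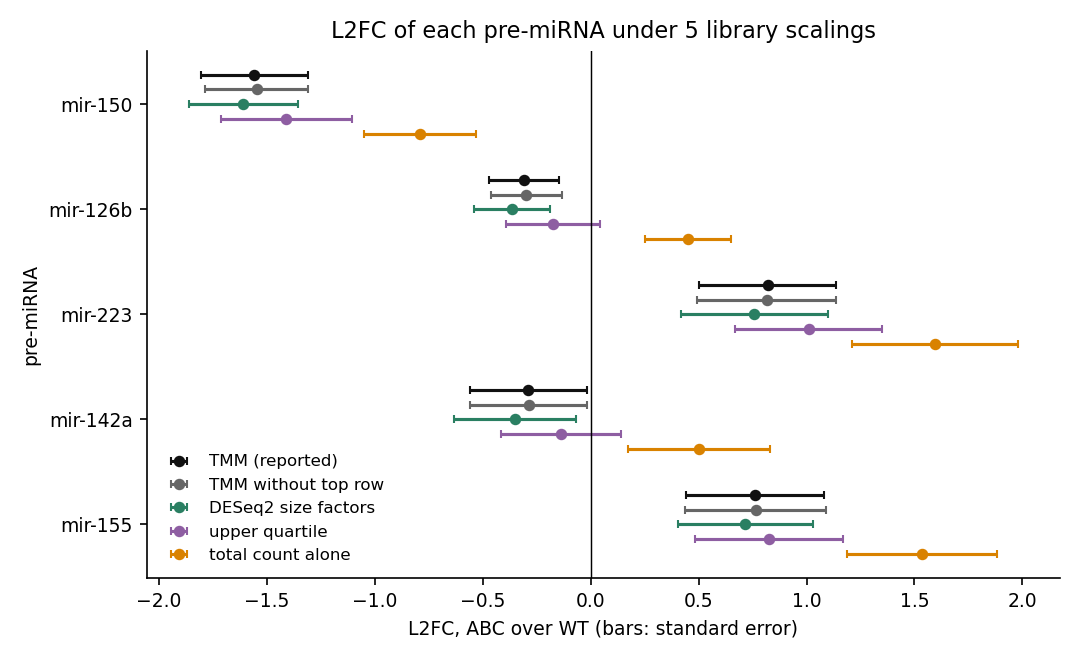
L2FC of ABC over WT for the 5 leukocyte and endothelial microRNAs under 5 scalings of the libraries, with bars of 1 standard error. mir-150 lies below 0 on all 5, and mir-126b and mir-142a change sign with total count alone.

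A ratio of 2 microRNAs within a fish does not depend on the scaling, so ratios were compared next, each as a raw count ratio. In all, 5 ratios were tested by two-sided exact permutation tests on log2 values, with Benjamini-Hochberg adjustment over the 5. The ratios to or from mir-126b were added after the values had been seen, and the adjusted values depend on that addition. The ratio of mir-223 to mir-142a was 2.94, 1.04, 0.977, 1.80 and 1.36 in ABC replicates 6 to 10, against 0.598, 0.775, 0.799, 0.724 and 0.370 in WT replicates 1 to 5. Every ABC fish lay above every WT fish, and the difference of the mean log2 ratios was 1.24 (exact permutation p = 0.00794, adjusted 0.0198). Relative to mir-142a, then, mir-223 was 2.36-fold higher in ABC compared to WT. That p is the smallest that 5 fish against 5 allow. How many other pre-miRNAs separate the groups when divided by mir-142a was not computed. The highest ratio, 2.94 in ABC replicate 6, went with the lowest mir-142a of the group, at 157 CPM, and with mir-223 at 463 CPM.

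The ratio of mir-155 to mir-142a ranged from 0.512 to 0.863 in ABC (median 0.651) and from 0.204 to 0.526 in WT (median 0.293). The difference of the mean log2 ratios was 1.06 (exact permutation p = 0.0159, adjusted 0.0265), and the groups overlapped in 1 fish on each side. It no longer passed without ABC replicate 8 (exact permutation, adjusted p = 0.0528). The ratio of mir-150 to mir-142a ranged from 2.98 to 13.8 in ABC and from 6.53 to 15.4 in WT, with a difference of -1.23 on the log2 scale (exact permutation p = 0.0397, adjusted 0.0496). ABC replicate 6, at 13.8, lay among the WT values, and the other 4 ABC fish, at 2.98 to 4.86, lay below all of them. Its adjusted p was over 0.05 in 8 of the 10 analyses that left out 1 fish.

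Set against the endothelial microRNA, mir-150 was lower in every ABC fish. The ratio of mir-150 to mir-126b was 1.70, 0.983, 0.962, 0.864 and 1.05 in ABC replicates 6 to 10, against 2.98, 2.47, 2.57, 2.12 and 3.12 in WT replicates 1 to 5. The difference of the mean log2 ratios was -1.28 (exact permutation p = 0.00794, adjusted 0.0198), a 2.44-fold lower ratio in ABC. This ratio was added after the levels of both microRNAs had been seen, so its p is descriptive and adds no support to the fall of mir-150. The ratio of mir-126b to mir-142a ranged from 3.03 to 8.16 in ABC and from 3.08 to 5.56 in WT, and its difference of 0.06 on the log2 scale was within the spread between fish (exact permutation p = 0.929).

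**Figure D4:**
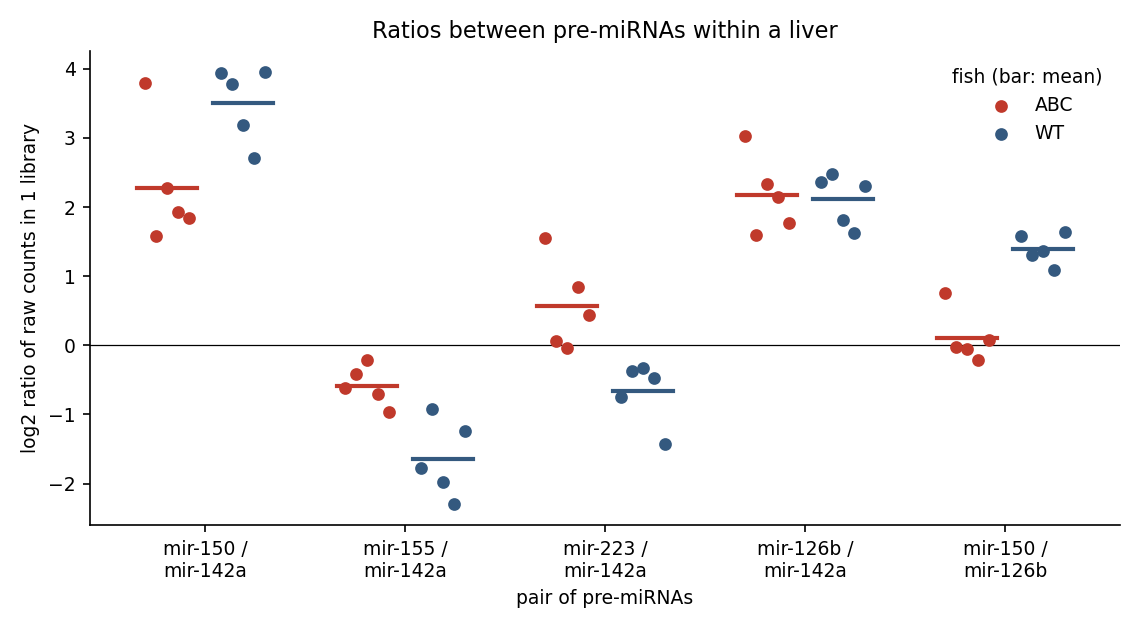
Log2 ratios of raw counts between pairs of the microRNAs within each fish, 1 point per fish, ABC left of WT, with bars for group means of the log2 ratio. The ratio of mir-223 to mir-142a is higher in all 5 ABC fish than in any WT fish, and the ratio of mir-150 to mir-126b is lower in all 5. The ratios with mir-126b were added after the values had been seen.

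The order of the levels was mir-150 (a mean of 2743 CPM over the 10 fish), mir-126b (1394 CPM), mir-223 (331 CPM), mir-142a (324 CPM) and mir-155 (157 CPM). mir-126b exceeded mir-223, and mir-142a exceeded mir-155, in all 10 fish. Other neighbours in this order were not separated in every fish. mir-150 exceeded mir-126b in all 5 WT fish and in 2 ABC fish, and mir-223 exceeded mir-142a in 4 ABC fish and in no WT fish. Divided by RefSeq hairpin length, the mean levels per 100 bases were 3472 CPM for mir-150, 1353 for mir-126b and 356 for mir-142a. They were 334 for mir-223 and 201 for mir-155. The changed places of mir-142a and mir-223 come from their hairpin lengths of 91 and 99 bases. Whether counts of small RNA rise with hairpin length was not tested, so the order in CPM is the one used here.

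Some pre-miRNAs followed these patterns closely over the 10 fish, measured as the root mean square distance of log2 CPM after centring each on its mean. Nearest to mir-150 were mir181a-2 at 0.37 and mir125c at 0.37, where the median of the other 143 pre-miRNAs was 1.12. Both had negative L2FCs that were called, -1.85 for mir181a-2 and -1.61 for mir125c. The distance includes the difference between ABC and WT, so a similar L2FC of near rows follows from the measure. The nearest rows lie under the median by selection. Nearest to mir-223 were MIR7-1 at 0.39 and mir93 at 0.42, with a median of 0.90, and nearest to mir-155 were MIR17 at 0.41 and mir27c at 0.45, with a median of 0.87. MIR152 at 0.24 and MIR214 at 0.25 were nearest to mir-126b, with a median of 0.70. For mir-142a the nearest were mir222b at 0.35 and MIRLET7G at 0.39, with a median of 0.78.

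In the RefSeq annotation of the zebrafish assembly GRCz12tu, which is not the build of the counts, the mir-126b hairpin lies inside egfl7, which encodes a protein secreted by endothelium. That host gene had 1 count over the 10 fish. The mir-150 hairpin lies inside bcl2l12, a relative of the BCL2 family, which also had 1 count. The mir-223 hairpin partly overlaps arhgap20b, which had 0 counts. The hairpins of mir-126b, mir-150 and mir-223 also lie inside long non-coding RNA genes, for which no counts were found by name. Strand was not compared. The levels of the microRNAs thus could not be set against those of the genes around them.

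Other microRNAs of blood, vessels and stroma were taken from a list of 14 names, found in 18 rows, of which 14 had counts and 11 passed the filter. Of these 11, 4 were called higher in ABC and 3 lower, beside the background of 43.1%. mir146a and mir-146b, which are induced by inflammatory signalling and restrain it in mice and humans, had L2FCs of 2.09 and 1.86 (edgeR padj 0.00079 and 0.000118). MIR221 and MIR222, a pair known from endothelium, blood progenitors and many tumours, had L2FCs of 2.43 and 2.64 (edgeR padj 1.44e-05 and 3.56e-07). These 4, mir146a, mir-146b, MIR221 and MIR222, were called higher under each of the scalings tried. A further row of that family, mir222b, was not called, with an L2FC of -0.23 (edgeR padj 0.402) and of 0.53 with total count alone. mir181a-2, of the lymphoid family mir-181, was lower with an L2FC of -1.85 (edgeR padj 0.000118), also under each scaling. mir181b-2 was called with an L2FC of -0.91, and MIR214, a microRNA of stromal cells, with an L2FC of -0.51 (edgeR padj 0.0411 each). With total count alone those values were -0.17 and 0.27, and neither was called. Both calls were also lost with upper-quartile factors and in 1 fit over all features, and that of MIR214 with TMM factors computed without the most abundant row. mir181c, of the same family as mir181a-2, had an L2FC of -0.04 (edgeR padj 0.905), and with total count alone it was called higher at 0.72 (edgeR padj 0.0442). The smooth muscle microRNAs MIR143 and MIR145 had L2FCs of -0.12 and -0.66 and were not called (edgeR padj 0.728 and 0.0715), and with total count alone they were 0.70 and 0.16. The erythroid mir-144 and mir-451 had 0 counts in every fish, although fragments of the erythrocyte transcripts hbaa1 and alas2 had 13 and 7 counts. Why both microRNA rows were at 0 was not tested, and they are not read as absence of these microRNAs.

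The same libraries hold a small amount of messenger RNA fragments, which allow a limited look at the cell types themselves. Of 37 rows for leukocyte transcripts, 16 were at 0 in every fish and 4 passed a filter of at least 10 counts over the 10 fish. Their median L2FC was 0.23, where that of all 3719 features at this filter was 0.31. They were cd74a at -0.05, cd74b at 0.51 and csf1ra at -0.70, none of them called, and tmsb4x, an actin-binding thymosin found in many cell types, which was called at 1.85 (edgeR padj 0.0467). The share called among the 3719 features was 7.77%, with 4.36% called higher and 3.41% lower. With the default filter, at which 29.5% of 481 features were called, tmsb4x was called at 1.52 (edgeR padj 0.0378). The tmsb4x call rested on 20, 23, 12, 20 and 15 counts in ABC, against 4, 3, 2, 1 and 11 in WT, and it was kept in 2 of the 10 analyses that left out 1 fish and lost with total count alone. Summed over the list, leukocyte transcripts gave 8.98 to 17.9 CPM in ABC and 5.32 to 11.02 CPM in WT. Their counts summed to 150 in ABC and 68 in WT, of which WT replicate 5 held 30. Without tmsb4x the sums were 60 in ABC and 47 in WT. The markers lyz of myeloid cells, lck of T cells, and cd79a and ighm of B cells were at 0 in all fish, and ptprc, which encodes CD45, had 4 counts. Other rows of the list had few counts over the 10 fish, such as 7 for CORO1A, 7 for marco and 6 for NCF1. ZAP70, cd8a and cd79b had 1 count each. At such counts a 0 cannot be read as absence of a cell type.

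Of 20 rows for endothelial transcripts, 2 were at 0 in every fish, and the remaining rows each had fewer than 10 counts, so none was tested. They summed to 37 counts in ABC and 37 in WT, or 3.17 to 4.27 CPM in ABC and 2.30 to 6.80 CPM in WT. The defining markers kdrl and cdh5 had 7 and 8 counts over the 10 fish. At this depth neither a fall nor a rise of lymphocyte or endothelial transcripts was detectable beside the microRNAs.

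Transcripts of further cell types also differed between the groups. Among all 3719 features at this filter, 3.41% were called lower and 4.36% higher. Of 18 hepatocyte transcripts tested, 11 were called lower in ABC and none higher (7 lower with total count alone), with a median L2FC of -1.996, and hepatocyte transcripts summed to 5685 counts in ABC and 18513 in WT. The largest falls were in ahsg2 at -4.48, hpxa at -2.95, serpina1l at -2.79 and RBP4 at -2.58, which encode proteins secreted into plasma. Without WT replicate 5, which held 10634 of the WT counts, 8 were called lower and the median was -1.48. All 11 exocrine pancreas transcripts tested were called lower (10 without WT replicate 5), with 68 counts in ABC and 2253 in WT, of which WT replicate 5 held 1758. Exocrine pancreas counts per fish were 9 to 20 in ABC and 49 to 224 in the other 4 WT fish. Most of these rows passed the filter through their WT counts, and a row kept that way could hardly be called higher. The called rows included the proteases prss59.2 at -5.24, ela2l at -5.14 and prss59.1 at -5.10. Also called was a CPA1 row (ENSDARG00000030915) with 0 counts in ABC and 65 in WT. Of 6 biliary and intestinal epithelial transcripts tested, 1 was called higher, the keratin krt18a.1 at 2.76, and of 4 stellate and mural cell transcripts none was called (1 higher with total count alone). Erythrocyte transcripts summed to 4 counts in ABC and 38 in WT, of which WT replicate 5 held 20. The part of these tissues in the values of the microRNAs was not tested.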

How the data were processed

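Small RNA of 10 livers was sequenced from libraries made with the NEBNext small RNA kit. The authors aligned the reads to GRCz10 and deposited raw counts per Ensembl gene, without normalization. Per the labels, Novoalign and featureCounts were used. Their versions, the trimming and the handling of multiply matching reads are not given in the sources used here. Fish were grouped by the genotype in their labels, and no batch is named. Each library is a separate fish.

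Pre-miRNAs with filterByExpr's defaults were fitted with edgeR 4.0.16 and limma 3.58.1 under R 4.3.3, using TMM factors, glmQLFit and glmQLFTest with genotype alone. The standard error is the L2FC over the root of F. DESeq2 1.42.0, other scalings, filters and thresholds, and leaving out each fish were alternatives. For single values and ratios, exact permutation tests of 5 against 5 were two-sided, with 0.5 added to each count in a log2 ratio. Of the ratios planned, those with mir-126a or mir-142b could not be computed because both rows were at 0. Transcripts were tested in 1 fit over all features, for the lists at a filter of at least 10 counts in all, scaled with TMM. The fits were checked on simulated counts. The named genes were all members, the called rows of the list of other microRNAs, the 2 pre-miRNAs nearest to each member, the host gene and up to 4 called transcripts per cell type list. Other names given with values were chosen after those were seen. The members and lists were chosen with earlier results of these data known. Intervals of L2FC are 95% intervals from the edgeR fit.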

Additional observations from a re-analysis of the deposited data

Results flagged for a closer look

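The highest and lowest fish of each group of 5 were set against the others by the gap to the nearest fish, divided by the range of the group. Over 12 measures and 24 groups, 2 fish stood apart, where chance gives about 1.2. For mir-150, ABC replicate 6 had 2183 CPM and the other 4 ABC fish had 1021 to 1313 CPM, a ratio of gap to range of 0.748. For mir-223, ABC replicate 8 had 244 CPM and the other 4 ABC fish had 458 to 483 CPM, a ratio of 0.896.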

How the results depend on the processing

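mir-150 was called lower in all 19 alternatives, with L2FCs of -1.78 to -1.46 when 1 fish was left out. With total count alone, the L2FC was 0.50 for mir-142a, 0.45 for mir-126b, 1.54 for mir-155 and 1.60 for mir-223. Of these, mir-155 and mir-223 were called, on a scale where 65 pre-miRNAs were called higher and 10 lower. mir-223 was also called with upper-quartile factors, at 1.01, and, as an alternative chosen after seeing the data, without WT replicate 5 and ABC replicate 8, at 0.71. With 1 fish left out, L2FCs ranged from 0.71 to 1.02 for mir-223, 0.49 to 1.03 for mir-155, -0.49 to -0.13 for mir-142a and -0.34 to -0.18 for mir-126b. The log2 ratio differences then ranged from 0.99 to 1.39 for mir-223 over mir-142a, 0.89 to 1.23 for mir-155 over mir-142a, -1.61 to -1.05 for mir-150 over mir-142a, -1.45 to -1.20 for mir-150 over mir-126b and -0.16 to 0.20 for mir-126b over mir-142a. Calls among all pre-miRNAs numbered 54 to 65 with 1 fish left out and 41 with thresholds of 0.01 for the adjusted p and 1 for the L2FC. The median over leukocyte transcripts was -0.0876 (reversed, without WT replicate 4) to 1.31 with 1 fish left out, and 1.52 with filterByExpr, which kept tmsb4x alone. The cause of these changes was not tested. Of 188 alternative values, 161 kept their direction and side of the threshold or, for counts and medians, stayed within a set limit. Some of the 161 could not differ from the main values. Summing paralog counts added only rows at 0, and a filter of at least 10 counts in at least 5 fish left the main values unchanged. No paired analysis was possible because the labels name no link between single ABC and WT fish. Counts of leukocyte and endothelial transcripts are too low for tests of most markers.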
